A study of Mus musculus with 4 samples.

Results

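The 35 genes described here mark cells that copy their DNA or divide, and they were taken by name, 35 of the 15301 genes that the 4 libraries of this series list between them. Every one of the 35 is listed in all 4 libraries. By textbook role, 14 act in S phase, when DNA is copied, and 20 act in G2 and mitosis (G2/M), when the chromosomes are condensed, attached to the spindle and pulled apart. Stmn1, a tubulin-binding protein of dividing cells, was kept apart from both groups. The cell cycle runs from G1 through S and G2 to mitosis: E2F factors switch on the replication genes at the start of S phase, and a later wave of transcription, tied to MuvB complexes acting through promoter elements with the letters TTTGAA, brings up the mitotic genes. Intraepithelial lymphocytes (IELs) are T cells that live between the epithelial cells of the gut, and most of them are long-lived and divide slowly in place.

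The cells were IELs from mouse colon, sorted as live CD3+ CD8α+ cells that carried either the αβ T cell receptor (TCRβ) or a receptor labelled TCRgamma, read here as TCRγδ. Each sort was made from mice labelled Tcf7WT and from mice labelled Tcf7KO, which gives 4 droplet-based 3′ single-cell libraries, 1 per group. All 4 libraries carry the same strain label, in which E8I Cre, a transgene driven by a Cd8a enhancer and active in CD8α+ cells, is combined with floxed Tcf7 (Tcf7 fl/fl). Only the genotype label tells Tcf7WT from Tcf7KO, and the sources used here do not give ages or whether mice were pooled. Tcf7 encodes the factor TCF1, which naive and memory T cells rely on. Because a group is 1 library, no test between groups was possible, and every interval below covers counting error only.

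Cells with 10 or more summed unique molecular identifiers (UMIs, 1 per captured RNA molecule) of the epithelial genes Krt8, Krt19, Pigr and Epcam were left out: 11 and 3 cells of the TCRβ libraries (Tcf7WT, then Tcf7KO) and 18 and 20 of the TCRγδ libraries. This left 7592, 5782, 1870 and 1491 cells with 6093349 to 20159687 UMIs per library. The members together had 19349, 18825, 5417 and 7004 UMIs in them, or 960, 1031, 889 and 1039 counts per 1000000 UMIs (CPM). Median depth was higher in Tcf7KO than in Tcf7WT and higher in TCRγδ than in TCRβ cells, at 2430 and 2860 UMIs per cell in the TCRβ libraries and 3190 and 4352 in the TCRγδ libraries. In every such pair of values, Tcf7WT comes first. Tcf7 itself stood at 149 and 108 CPM in the TCRβ pair and at 46.4 and 15.4 CPM in the TCRγδ pair, and 3′ counts need not lie in the part that Cre removes, which the sources used here do not give. Any pair of libraries shared between 1 and 10 cell barcodes.

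Of the 35 members, 29 were found in the RefSeq promoter table (GRCm38.p6), which holds 250 bases before and 50 bases after each start site. Both strands were searched for TTTGAA and its variant TTTAAA (letters of the cell cycle homology region), CCAAT (the core letters of NF-Y sites), and TTTGGCGC and TTTCGCGC (letters of E2F sites). The letters TTTGAA were present for 13 of 17 G2/M members and 1 of 12 S members, Mcm2, against 17.9% of all 32851 promoters of that length. CCAAT was present for 15 of 17 G2/M and 9 of 12 S members, against 37.4% of all promoters. E2F letters of either spelling were present for 4 of 12 S members (Mcm3, Mcm5, Mcm6 and Mcm7) and for 1 of 17 G2/M members (Cdk1), against 0.813% of all promoters. Only Mcm6 held both E2F spellings within 150 bases of the start, overlapping on opposite strands. A match is a description of letters and not of binding. Promoters of Mcm4, Gins2, Ccna2, Tpx2, Aurkb and Stmn1 were not used here.

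The 150 bases before the start site are shown for 8 members: Ube2c, Mki67 and Top2a, mitotic genes whose RNA was held by few cells; Cenpa and Hmgb2, G2/M genes whose RNA was spread over many cells; Pclaf, an S gene held by few cells; and Mcm5 and Mcm6, S genes spread over many cells. Sequences are from RefSeq (GRCm38.p6), 5′ to 3′ on the strand of the gene, and capitals mark the letters searched for, on either strand. They lie at chr2:164769779-164769928 (plus strand) for Ube2c, chr7:135716380-135716529 (minus strand) for Mki67, chr11:99024190-99024339 (minus strand) for Top2a, chr5:30666736-30666885 (plus strand) for Cenpa, chr8:57511693-57511842 (plus strand) for Hmgb2, chr9:65890173-65890322 (plus strand) for Pclaf, chr8:75109359-75109508 (plus strand) for Mcm5 and chr1:128359706-128359855 (minus strand) for Mcm6. The TTTGAA letters start 29 bases before the start site in Ube2c and 23 in Top2a, both on the reverse strand, 30 in Hmgb2, and 116 and 98 in Mki67.
Ube2c: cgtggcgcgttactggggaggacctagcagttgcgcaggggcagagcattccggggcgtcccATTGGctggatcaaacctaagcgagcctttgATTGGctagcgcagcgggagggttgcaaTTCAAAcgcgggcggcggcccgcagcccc
Mki67: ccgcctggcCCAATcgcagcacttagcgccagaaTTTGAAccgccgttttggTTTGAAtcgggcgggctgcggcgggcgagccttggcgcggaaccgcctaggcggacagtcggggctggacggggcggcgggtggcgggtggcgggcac
Top2a: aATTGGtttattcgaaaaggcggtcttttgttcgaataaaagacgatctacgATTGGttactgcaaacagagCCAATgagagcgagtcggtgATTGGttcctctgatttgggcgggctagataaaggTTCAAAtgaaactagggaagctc
Cenpa: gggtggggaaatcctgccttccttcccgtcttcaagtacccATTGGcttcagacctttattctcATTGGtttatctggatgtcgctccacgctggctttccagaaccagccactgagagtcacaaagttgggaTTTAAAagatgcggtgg
Hmgb2: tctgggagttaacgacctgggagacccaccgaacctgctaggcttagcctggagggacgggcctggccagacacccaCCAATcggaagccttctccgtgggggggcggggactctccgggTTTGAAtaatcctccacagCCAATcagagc
Pclaf: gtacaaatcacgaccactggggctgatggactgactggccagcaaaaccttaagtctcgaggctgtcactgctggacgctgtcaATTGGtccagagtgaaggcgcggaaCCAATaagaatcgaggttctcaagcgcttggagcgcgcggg
Mcm5: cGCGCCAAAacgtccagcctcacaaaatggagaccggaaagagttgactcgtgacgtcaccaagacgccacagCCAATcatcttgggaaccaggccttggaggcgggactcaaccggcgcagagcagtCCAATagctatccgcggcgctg
Mcm6: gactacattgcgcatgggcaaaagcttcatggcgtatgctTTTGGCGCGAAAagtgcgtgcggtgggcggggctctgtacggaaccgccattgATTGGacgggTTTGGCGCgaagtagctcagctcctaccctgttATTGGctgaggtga

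The 6 Mcm genes encode the subunits of the ring-shaped helicase that opens DNA at replication forks. Mcm6 stood at 84.3 and 99.6 CPM in the TCRβ libraries and at 84.7 and 97.6 CPM in the TCRγδ libraries, so it was higher in Tcf7KO in both sorts and the sorts did not separate. Mcm5 was at 42.3 and 51.5 CPM in the TCRβ pair and 31.3 and 43.2 CPM in the TCRγδ pair. Mcm3 followed the same order, at 62.0 and 70.3 CPM against 45.6 and 52.8 CPM. For Mcm3 both TCRγδ libraries lay below both TCRβ libraries, while for Mcm5 the TCRγδ Tcf7KO value overlapped the TCRβ values. Mcm7 was at 77.3 and 82.0 CPM in the TCRβ pair and 55.5 and 65.3 CPM in the TCRγδ pair. Mcm4 was at 67.6 and 70.6 CPM against 54.2 and 53.6 CPM. Both thus had lower values in TCRγδ than in TCRβ cells of either genotype, and Mcm4 was the Mcm gene with the least difference between genotypes. Mcm2 had only 91 UMIs over the 4 libraries and lay between 1.48 and 2.23 CPM.

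Pcna, the sliding clamp that holds DNA polymerase on its template, was nearly level at 147 and 144 CPM in the TCRβ pair and 134 and 141 CPM in the TCRγδ pair. Its 4 exact Poisson intervals ran from 125 to 153 CPM. Pclaf, a small protein that binds the clamp, was at 24.4 and 24.5 CPM in the TCRβ pair and at 21.7 and 32.3 CPM in the TCRγδ pair, so that only TCRγδ Tcf7KO stood out. Gins2, a subunit of the GINS complex that completes the helicase, showed the same order at 4.51 and 5.20 CPM against 3.28 and 6.08 CPM.

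The nucleotide-supply members did not share one pattern. Tyms, which makes thymidylate, was at 20.2 and 18.2 CPM in TCRβ and 27.2 and 26.1 CPM in TCRγδ cells, which puts both TCRγδ libraries above both TCRβ libraries. Tk1, the thymidine salvage kinase, was nominally higher in TCRγδ cells, at 9.19 and 11.1 CPM against 7.14 and 8.38 CPM, and the interval of its ratio between the sorts held 1-fold in either genotype. Rrm1, the large subunit of ribonucleotide reductase, was at 39.5 and 35.6 CPM in the TCRβ pair and 32.2 and 35.9 CPM in the TCRγδ pair. Rrm2, the small subunit and the one made mainly in S phase, was at 2.58 and 2.35 CPM in the TCRβ pair, and at 1.31 and 3.71 CPM in the TCRγδ pair from 8 and 25 UMIs. The large subunit varied little while the small one had its lowest and highest values in the TCRγδ libraries. Ung, the uracil glycosylase that repairs misbuilt DNA, ran the other way from Tyms, at 14.6 and 13.9 CPM in TCRβ and 9.03 and 6.97 CPM in TCRγδ cells.

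Among the G2/M members, those that drive entry into mitosis were at low levels. Cdk1, the mitotic kinase, was at 5.80 and 4.76 CPM in the TCRβ pair and 5.74 and 7.42 CPM in the TCRγδ pair. Its partner Ccna2 (cyclin A2) was at 6.75 and 5.53 CPM against 7.06 and 6.23 CPM. Ccnb2 (cyclin B2) was at 6.45 and 8.76 CPM in the TCRβ pair and 4.43 and 7.57 CPM in the TCRγδ pair. Ccna2 was thus lower in Tcf7KO than in Tcf7WT cells of either sort, with a genotype ratio whose interval held 1-fold, and Ccnb2 was higher in both, with an interval that did not. Ccnb1 (cyclin B1) had 74 UMIs in all and lay between 0.742 and 1.81 CPM. Plk1, a kinase that starts several mitotic steps, was at 2.78 and 1.86 CPM in the TCRβ pair and 2.79 and 2.37 CPM in the TCRγδ pair. Aurka, the kinase of the spindle poles, was at 9.82 and 7.99 CPM against 9.03 and 7.57 CPM. In each sort, Tcf7KO was nominally below Tcf7WT for both kinases, and the interval of each genotype ratio held 1-fold.

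Members that build or read the chromosomes and kinetochores spanned a wide range of levels. Top2a, the topoisomerase that untangles sister DNA, was at 32.3 and 36.0 CPM in the TCRβ pair and at 36.4 and 39.2 CPM in the TCRγδ pair. Mki67, the coat of mitotic chromosomes that gives the Ki-67 antigen, was at 19.5 and 22.9 CPM against 24.8 and 22.4 CPM. For Mki67 the genotypes were ordered one way in TCRβ and the other way in TCRγδ cells. Cenpa, the histone of centromeres, was at 44.9 and 52.5 CPM in the TCRβ pair and at 44.6 and 61.1 CPM in the TCRγδ pair. Cenpf, a kinetochore protein, was at 9.97 and 14.1 CPM against 6.07 and 9.05 CPM. Bub1, a kinase of the spindle checkpoint, was at 2.88 and 2.30 CPM in the TCRβ pair and 1.64 and 3.71 CPM in the TCRγδ pair. Cenpf was therefore lower in TCRγδ than in TCRβ libraries, whereas Bub1 had both its lowest and its highest value in TCRγδ cells. Hmgb2, a DNA-bending protein that resting T cells also make, was at 124 and 136 CPM in TCRβ and 164 and 186 CPM in TCRγδ cells. Its highest interval in a TCRβ library ended at 142 CPM and its lowest in a TCRγδ library began at 154 CPM.

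The chromosomal passenger complex, which corrects spindle attachments, was represented by 3 members. Birc5 (survivin) was at 11 and 12.8 CPM in the TCRβ pair and at 5.58 and 11.6 CPM in the TCRγδ pair. Cdca8 (borealin) was at 10.5 and 12.2 CPM against 6.56 and 9.64 CPM. Aurkb, the complex's kinase, was at 4.17 and 5.09 CPM against 2.95 and 6.53 CPM. All 3 had their lowest value in TCRγδ Tcf7WT, from 34, 40 and 18 UMIs. The spindle members Tpx2, which activates Aurka, and Nusap1, which bundles microtubules, shared that low point: Tpx2 was at 7.99 and 7.61 CPM in the TCRβ pair and 4.27 and 7.12 CPM in the TCRγδ pair. Nusap1 was at 6.50 and 5.64 CPM against 3.94 and 6.82 CPM. Kif11, the motor that pushes the spindle poles apart, was at 8.14 and 8.16 CPM in the TCRβ pair and 8.70 and 13.5 CPM in the TCRγδ pair. It differed from the spindle members above in that its TCRγδ Tcf7WT value was no lower than its TCRβ values.

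The remaining members end mitosis. Ube2c, the ubiquitin-conjugating enzyme of the anaphase-promoting complex, was at 6.45 and 5.42 CPM in the TCRβ pair and 3.77 and 5.34 CPM in the TCRγδ pair. Cdc20, which activates that complex, was at 7.74 and 7.50 CPM against 5.25 and 4.90 CPM. Stmn1 was at 35.5 and 43.8 CPM in the TCRβ pair and 29.9 and 42.9 CPM in the TCRγδ pair, which puts both Tcf7KO libraries above both Tcf7WT libraries.

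**Figure D1:**
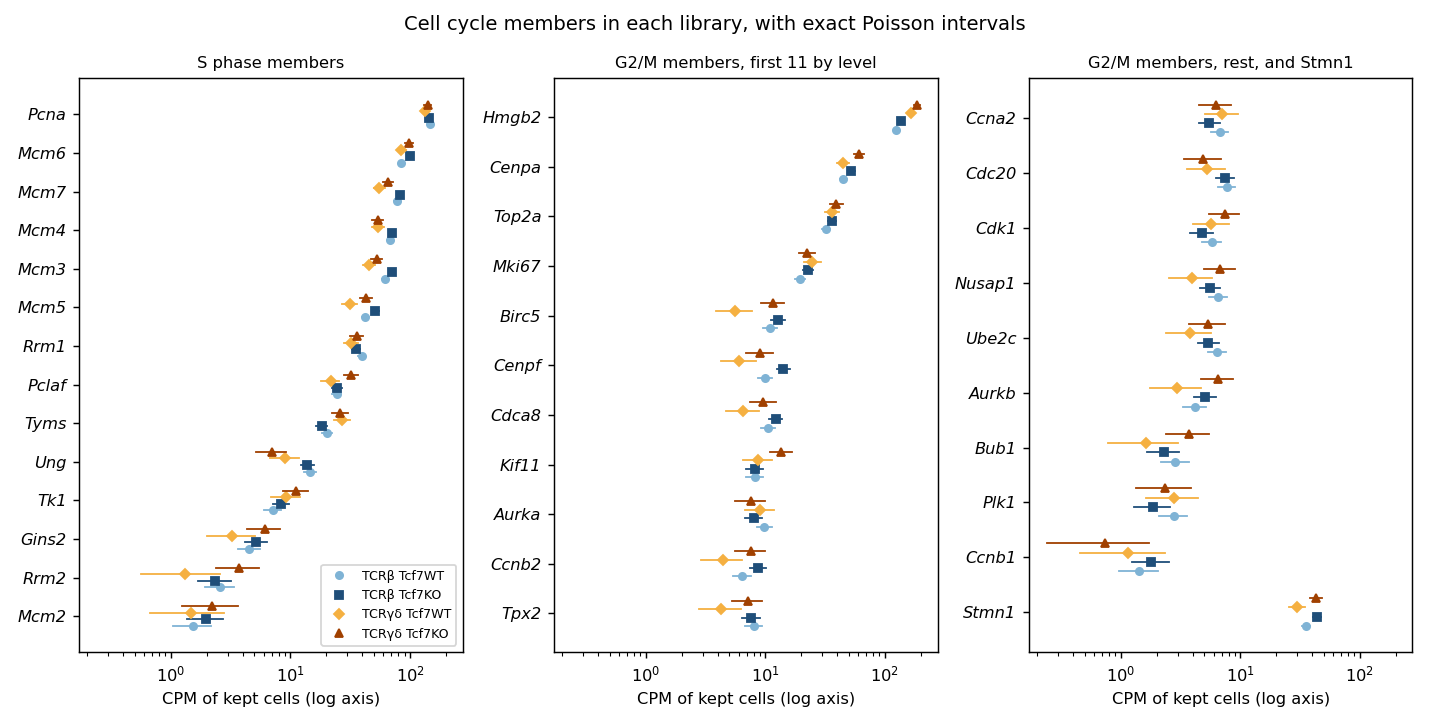
CPM of each member over the kept cells (x axis, log scale), with 1 symbol per library and its exact Poisson interval as a line; S members are on the left and G2/M members and Stmn1 in the other panels. Hmgb2 lies at 164 and 186 CPM in the TCRγδ libraries against 124 and 136 CPM in the TCRβ libraries, while Birc5, at 5.58 CPM, shows the low TCRγδ Tcf7WT value that several G2/M members share.

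Members differed in how few cells held them. For each member, the share of its UMIs was taken in cells that had 10 or more UMIs of the other members, without Hmgb2 and Stmn1; the class is cut on the members themselves, so these shares are a description. Over the 4 libraries, Bub1 had 94.8% of its UMIs in such cells, Birc5 94.7% and Pclaf 92.2%. Nusap1, Ccnb2, Cenpf, Ube2c and Tpx2 followed with 87.8% to 81.0%, and Mki67 had 79.2%. At the other end, Hmgb2 had 10.6%, Cenpa 13.4%, Pcna 16%, Aurka 16.4%, Mcm4 19.2% and Mcm6 23.2%. The UMIs of these 6 genes thus came mostly from cells with few other cell cycle RNAs. The median share was 70.8% over the 20 G2/M members and 33.6% over the 14 S members. At least 50% of the UMIs lay in such cells for 15 of 20 G2/M members and for 4 of 14 S members (Pclaf, Rrm2, Gins2 and Tk1). Stmn1, which had no part in the rule, had 84.0% there, between 81.8% and 86.9% by library.

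Within a library the split was similar, with one exception. The median share of the G2/M members was 71.7% and 76.8% in the TCRβ pair and 79.9% in TCRγδ Tcf7KO, but 55.9% in TCRγδ Tcf7WT. In that library Mki67 had 56.3% of its UMIs in such cells and Top2a 43.2%, against at least 76.8% and 69.5% in each of the others. The promoter letters did not follow the split among G2/M members: Hmgb2, Cenpa and Aurka hold TTTGAA in the searched window, as do Ube2c, Mki67 and Top2a printed above, and Bub1 and Birc5 do not.

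**Figure D2:**
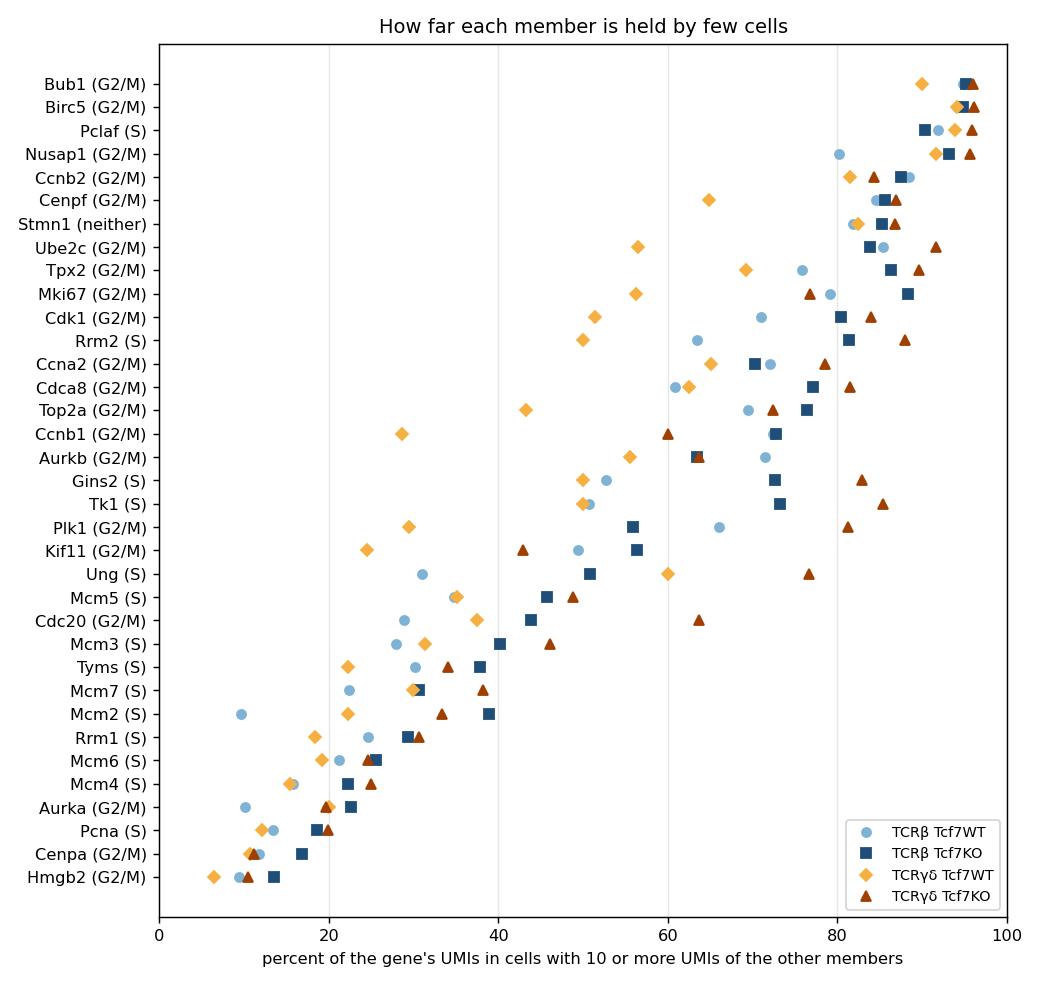
Percent of each member's UMIs found in cells with 10 or more UMIs of the other members (x axis), 1 symbol per library, members in order of their share over all 4 libraries. G2/M genes such as Bub1 (94.8%) fill the top and Pcna (16%), Cenpa (13.4%) and Hmgb2 (10.6%) the bottom, and TCRγδ Tcf7WT lies to the left for Top2a (43.2%).

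Most cells had no or few UMIs of the 33 members left after Hmgb2 and Stmn1 were set aside, and a thin tail ran up to 204 and 215 UMIs in 1 cell of the TCRβ pair and 148 and 224 in the TCRγδ pair. The curve of cells per UMI count fell steeply to about 9 UMIs and then flattened. A class of cells with 10 or more UMIs was set after seeing that curve. It held 149 and 175 cells in the TCRβ pair and 34 and 57 cells in the TCRγδ pair, with 71, 66, 19 and 33 cells close below at 7 to 9 UMIs and 31, 34, 3 and 13 cells just inside at 10 to 12. These cells carried 34.8% and 42.4% of the UMIs of the 33 members in the TCRβ pair and 30.5% and 44.7% in the TCRγδ pair, from 4.4%, 6.87%, 4.08% and 7.55% of all UMIs.

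**Figure D3:**
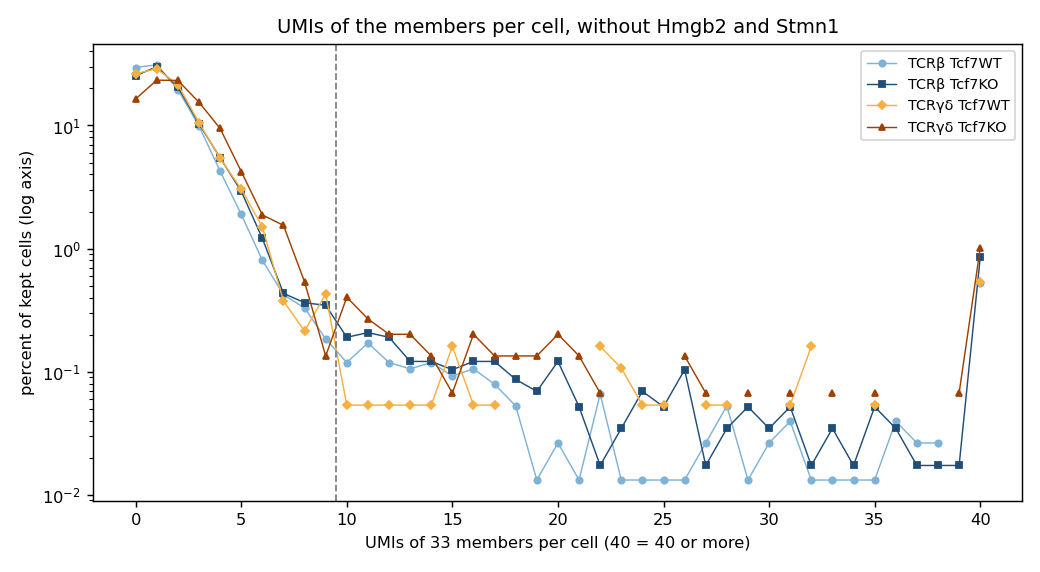
Percent of kept cells (y axis, log scale) by the number of UMIs of 33 members in the cell (x axis, the last point being 40 or more), 1 line per library, with counts at which a library has no cell left blank. The curves fall to the dashed line between 9 and 10 UMIs and then level off into a thin tail of 149, 175, 34 and 57 cells in the order of the legend.

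Cells of the class were deeper than the rest, with median depths of 5623 and 6675 UMIs in the TCRβ pair and 6998 and 8280 in the TCRγδ pair, against 2412, 2819, 3153.5 and 4317.5 in all other cells. A doublet caller marked almost no cell in any library, so how many of these deep cells hold RNA of more than 1 cell was not tested. They were T cells by their markers: a UMI of Cd3e, Cd3d or Cd3g was present in 148 of 149, 175 of 175, 34 of 34 and 57 of 57. The 8 T cell markers summed to 7662 to 8541 CPM in the class and 9689 to 11241 CPM outside it. Lyz2, Csf1r and Ms4a1, which define myeloid and B cells, are not listed in any of the 4 libraries and so check nothing. The B cell markers that are listed, mainly Cd79b, summed to 25.9 to 40.6 CPM in the class and 29.2 to 38.7 CPM outside it. The 6 myeloid markers summed to 2063 to 3841 CPM in the class and 2648 to 5617 CPM outside it, with Fcer1g and Tyrobp, which IELs share with myeloid cells, as the main part; in TCRβ Tcf7WT class cells they gave 1384 and 620 of 2007 UMIs. No class cell had more than 8 UMIs of the 4 epithelial genes, but cells rich in these genes had already been left out, so this maximum checks nothing. The 9 epithelial markers, which include these 4 genes, summed to 156 to 205 CPM in the class and 186 to 243 CPM outside it.

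By phase, cells were counted as S only, both, or G2/M only with at least 5 UMIs of a group (Hmgb2 set aside). In the TCRβ pair, S only made up 61.1% and 68.0% of the class, both 32.9% and 25.7%, and G2/M only 6.04% and 6.29%. In the TCRγδ pair, S only made up 41.2% and 63.2%, both 44.1% and 28.1%, and G2/M only 14.7% and 8.77%. In this unthinned class, S only was thus the largest state in 3 libraries and lay close to "both" in TCRγδ Tcf7WT. There, 14, 15 and 5 cells give exact binomial intervals of 24.6% to 59.3% for S only and 27.2% to 62.1% for both. A second split used cells thinned to 1500 UMIs with 3 or more member UMIs, and at least 2 UMIs of a group. In it, S only was largest in every library, at 80.0% and 78.6% in the TCRβ pair and 70.6% and 66.7% in the TCRγδ pair. Both made up 13.8% in TCRγδ Tcf7WT, so the near tie there depended on the class and cut used.

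With Hmgb2 set aside, the balance of S against G2/M RNA was similar in all libraries. S members gave 74.4% and 73.8% of the summed S and G2/M UMIs in the TCRβ pair and 73.4% and 71.3% in the TCRγδ pair. The interval of TCRγδ Tcf7KO, 70.0% to 72.5%, lay below those of the TCRβ pair, 73.7% to 75.0% and 73.1% to 74.5%. With Hmgb2 kept, the shares were further apart between the sorts and lower in TCRγδ cells. Inside the class the S share was lower, at 58.3%, 61.0%, 62.3% and 61.5%, and outside it was 83.0% and 83.2% in TCRβ and 78.3% and 79.2% in TCRγδ cells. Summed over cells, the RNA outside the class was thus mainly that of S members, and the RNA of the class came from both groups. These sums do not describe single cells. Only 32.9%, 25.7%, 44.1% and 28.1% of class cells had at least 5 UMIs of both groups.

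To compare shares of cycling cells at one depth, each cell was thinned to 1500 UMIs, which left out 502, 371, 234 and 19 shallower cells. With a cycling cell defined as one with 3 or more UMIs of the 33 members, the share was 7.81% (95% exact binomial interval 7.2% to 8.46%) in TCRβ Tcf7WT, 7.50% (6.82% to 8.24%) in TCRβ Tcf7KO, 6.66% (5.50% to 7.98%) in TCRγδ Tcf7WT and 6.93% (5.69% to 8.35%) in TCRγδ Tcf7KO. Each interval overlaps each other one, so by this rule no difference between genotypes or sorts was detectable at this depth. Other rules gave the sorts shares further apart in Tcf7WT, and not in one direction; no interval was computed for them. With a UMI of Mki67, Top2a or Birc5 as the rule at the same depth, the share was 2.95% in TCRβ and 4.83% in TCRγδ Tcf7WT cells. With 3 or more UMIs of the 33 members after thinning to 2500 UMIs, which leaves 3518 and 1240 cells, it was 20.5% and 14.7%. Without thinning the shares were 19.7% and 24.1% in the TCRβ pair and 23.3% and 37.0% in the TCRγδ pair, lowest in the library with the lowest median depth and highest in the one with the highest. Cells with 3 or more UMIs of the naive T cell markers Ccr7, Lef1, Dapl1 and Igfbp4, which should rest, gave 6.16% (9 of 146, interval 2.86% to 11.4%) in TCRβ Tcf7WT and 13.8% (15 of 109, interval 7.91% to 21.7%) in TCRβ Tcf7KO, at median depths of 2638.5 and 3249 UMIs against 2492 and 2951 in all thinned cells. The share in all cells lay inside the first of these intervals and below the second, so it is not read as a share of dividing cells. Whether the naive-marker cells rest was not tested, so they set no firm background. They were picked on unthinned UMIs, and 7 of 116 in TCRβ Tcf7KO had 10 or more UMIs of the members without thinning. The TCRγδ libraries held 0 and 1 such naive-marker cells, and this check could not be made there.

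Stricter classes gave lower shares, and the intervals of the 4 libraries again overlapped. TCRβ Tcf7WT, which was highest with 3 or more thinned UMIs, was lowest in these classes. With 5 or more thinned UMIs the shares were 1.61% and 2.07% in the TCRβ pair and 1.89% and 2.04% in the TCRγδ pair. With 8 or more they were 0.846%, 1.05%, 0.978% and 1.09%. By contrast, the class of 10 or more UMIs without thinning gave 1.96% (1.66% to 2.30%) and 3.03% (2.60% to 3.5%) in the TCRβ pair and 1.82% (1.26% to 2.53%) and 3.82% (2.91% to 4.93%) in the TCRγδ pair. In this class, as in the class of 3 or more UMIs without thinning, the intervals of Tcf7WT and Tcf7KO of a sort did not overlap, and in both depth differs between the libraries. Naive-marker cells reached it in 3 of 150 TCRβ Tcf7WT cells (2%) and 7 of 116 TCRβ Tcf7KO cells (6.03%), again no lower than all cells. A UMI of Mki67 was found in 1.11% and 1.03% of thinned TCRβ cells and in 2.02% and 1.49% of thinned TCRγδ cells (unthinned 1.75%, 1.66%, 4.12% and 3.29%). The thinned Mki67 intervals of the Tcf7WT libraries, 0.883% to 1.387% in TCRβ and 1.392% to 2.82% in TCRγδ, did not overlap. It was found in 2 of 146 and 1 of 109 naive-marker cells (1.37% and 0.917%).

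**Figure D4:**
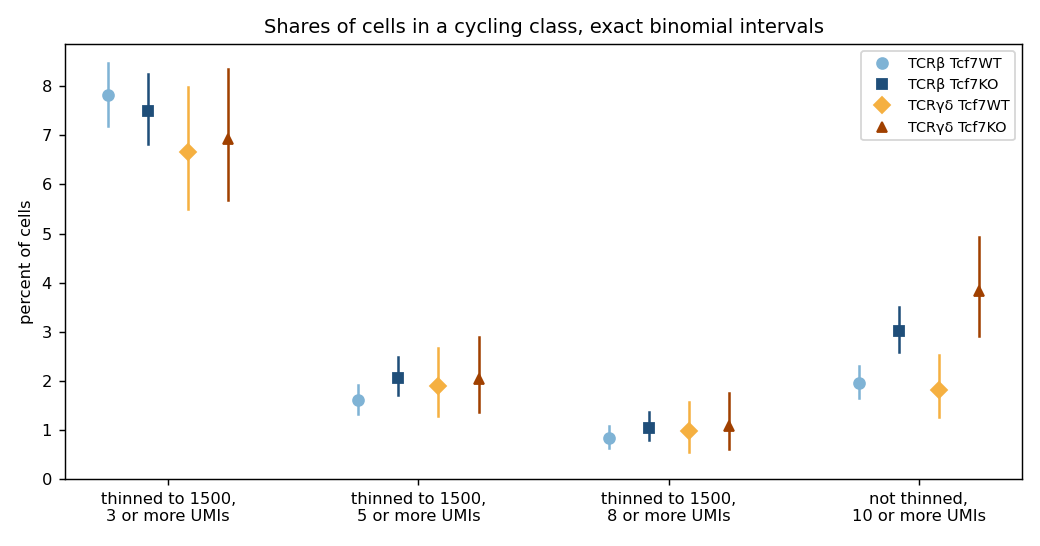
Percent of cells in a cycling class (y axis) under 4 definitions (x axis), 1 symbol per library with its exact binomial interval. Intervals of the 4 libraries overlap in each thinned class, and Tcf7KO lies above Tcf7WT of the same sort in the class without thinning, at 3.03% against 1.96% in TCRβ and 3.82% against 1.82% in TCRγδ cells.

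In TCRβ cells, Tcf7KO against Tcf7WT, the members differed little between the genotypes. Of the 35, 0 were at least 1.5-fold higher, against 3.1% of 12752 genes with 20 or more UMIs over both libraries, and 0 were at least 1.5-fold lower, against 5.7% of them. The median log2 ratio of the members was 0.08, beside -0.07 over all genes. For 9 members the exact interval lay above 0 and for 0 below it. The largest of these were Cenpf at 0.50 (0.23 to 0.78), Ccnb2 at 0.44 (0.10 to 0.79), Stmn1 at 0.30 (0.16 to 0.45) and Mcm5 at 0.28 (0.15 to 0.42). The lowest ratio was that of Plk1, at -0.58 (-1.24 to 0.06). Summed, the S members were at 628 CPM in Tcf7KO and 595 in Tcf7WT, a log2 ratio of 0.08 (0.04 to 0.11), and the G2/M members at 359 and 329 CPM, a ratio of 0.13 (0.08 to 0.18). The 6 Mcm genes summed to a ratio of 0.17 (0.12 to 0.21), and the S members without them and Pcna to -0.06 (-0.15 to 0.02). Outside the class of 10 or more UMIs, the S sum had a ratio of -0.05 (-0.09 to -0.00317), and inside it a ratio of -0.21 (-0.27 to -0.14). The class took 6.87% of the UMIs of Tcf7KO and 4.4% of those of Tcf7WT. It is cut on the UMIs compared here, so the ratios inside and outside it only describe where the RNA lay. Cells thinned to 1500 UMIs gave an S ratio of 0.00266.

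In TCRγδ cells, 34 members had 20 or more UMIs over both libraries, Ccnb1 being the other. Of them, 10 were at least 1.5-fold higher in Tcf7KO, against 3.81% of 11242 genes, and 0 were at least 1.5-fold lower, against 8.23%. The 10 were 7 G2/M members (Aurkb, Birc5, Bub1, Ccnb2, Kif11, Nusap1 and Tpx2) and 3 S members (Gins2, Mcm2 and Rrm2). The median log2 ratio was 0.41, beside -0.06 over all genes, and 16 intervals lay above 0. Rrm2 had the highest ratio at 1.5 (0.30 to 2.86), followed by Bub1 at 1.18 (0.07 to 2.40), Aurkb at 1.14 (0.32 to 2.02) and Birc5 at 1.05 (0.45 to 1.68). Among members with more UMIs, Pclaf was at 0.58 (0.26 to 0.90), Stmn1 at 0.52 (0.25 to 0.80), Mcm5 at 0.46 (0.19 to 0.73) and Cenpa at 0.45 (0.23 to 0.68). Pcna at 0.07 (-0.07 to 0.21), Top2a at 0.10 (-0.16 to 0.37) and Mki67 at -0.15 (-0.48 to 0.19) had intervals that held 0. Summed, the S members were at 577 CPM in Tcf7KO and 511 in Tcf7WT, a log2 ratio of 0.18 (0.11 to 0.25), and the G2/M members at 419 and 349 CPM, a ratio of 0.26 (0.18 to 0.35).

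Much of this RNA lay in the 34 and 57 cells of the class, which held 30.5% of the UMIs of the 33 members in Tcf7WT and 44.7% in Tcf7KO. Outside the class, 1 member was at least 1.5-fold higher and 8 were lower, and the S sum stood at -0.04 (-0.12 to 0.04). The class is cut on the UMIs compared here, so values outside it describe where the RNA lay and are no check of the difference. With every cell thinned to 1500 UMIs, 1 was higher and 1 lower. The minimum of UMIs was applied to the counts left after thinning, so members with few UMIs could fall out of the count. The lower number is thus no measure of how far the difference shrank. In thinned cells the summed S and G2/M members were still higher in Tcf7KO, by smaller ratios than without thinning. Median depth also moved with genotype here, from 3190 to 4352 UMIs, and its part in the result was otherwise not tested. With the epithelial-marker cells put back, 19 members were at least 1.5-fold higher. Shares over all genes were not computed outside the class, in thinned cells or with the epithelial-marker cells put back, so these counts have none beside them.

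**Figure D5:**
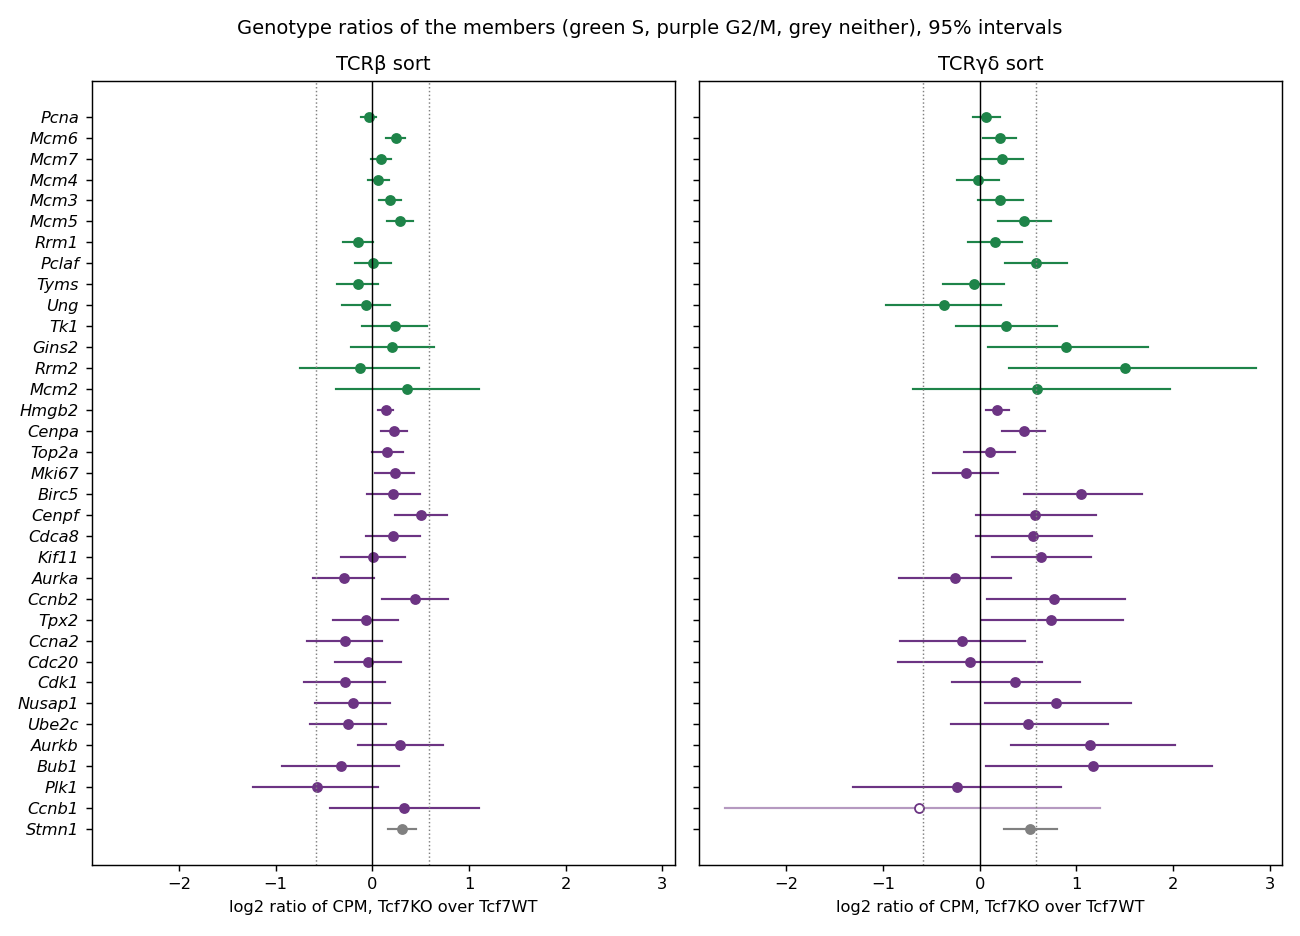
Log2 ratio of CPM of each member, Tcf7KO over Tcf7WT (x axis), with its exact 95% interval, in TCRβ (left) and TCRγδ cells (right); dotted lines mark 1.5-fold and the open symbol a gene with under 20 UMIs. In TCRβ cells 0 members pass the dotted lines among 35, and in TCRγδ cells 10 of 34 pass the right one, with wide intervals for Rrm2 and Bub1.

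Between the sorts, the comparisons share libraries with those above, so each is given on its own. Among Tcf7WT libraries, 9 of 35 members were at least 1.5-fold lower in TCRγδ than in TCRβ cells, against 10.2% of 12174 genes, and 0 were at least 1.5-fold higher, against 9.06%. The 9 were Birc5, Bub1, Cdca8, Cenpf, Nusap1, Rrm2, Tpx2, Ube2c and Ung, and the median of the members was -0.32 beside -0.09 over all genes. Birc5 was lowest at -0.98 (-1.55 to -0.46), then Tpx2 at -0.90 (-1.56 to -0.30). Hmgb2 at 0.40 (0.30 to 0.51), Tyms at 0.43 (0.16 to 0.69) and Mki67 at 0.34 (0.06 to 0.62) were the 3 members whose interval lay above 0. The S sum was -0.22 (-0.28 to -0.16). The G2/M sum was 0.08 (0.01 to 0.15) with Hmgb2, and -0.15 (-0.25 to -0.06) without it, so that 1 gene set the sign of that sum. In thinned cells, Ube2c turned to 0.07.

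Among Tcf7KO libraries, 4 members were at least 1.5-fold higher in TCRγδ cells (Bub1, Cdk1, Kif11 and Rrm2), against 7.98% of 11960 genes, and 4 were at least 1.5-fold lower (Ccnb1, Cdc20, Cenpf and Ung), against 11.9%. The median was -0.02 beside -0.10 over all genes. Kif11 was highest at 0.73 (0.33 to 1.11), and Ung was lowest among members with 100 or more UMIs, at -1.0 (-1.48 to -0.54). Hmgb2 was again higher in TCRγδ cells, at 0.45 (0.35 to 0.55), and Tyms at 0.52 (0.25 to 0.79), whereas Mcm3 was at -0.41 (-0.58 to -0.24) and Mcm4 at -0.40 (-0.57 to -0.23). The S sum was -0.12 (-0.17 to -0.07) and the G2/M sum 0.22 (0.16 to 0.29), or 0.06 (-0.02 to 0.15) without Hmgb2. The S sum hid a split: the 6 Mcm genes were at -0.26 (-0.33 to -0.19), and the S members without them and Pcna at 0.18 (0.06 to 0.29). Among Tcf7WT libraries the same sums were -0.30 (-0.37 to -0.22) and -0.12 (-0.25 to 0.01). With either TMM or DESeq2 scaling, 2 members were at least 1.5-fold lower. In thinned cells, Cdk1 turned to -0.44. With the epithelial-marker cells put back, 9 were higher and 1 lower, and Cenpf and Cdc20 turned to 0.22 and 0.08. Shares over all genes were not computed under these alternatives.

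Outside the class, Hmgb2 was higher and the summed S members were lower in TCRγδ than in TCRβ cells. There, Hmgb2 was at 160 CPM in TCRγδ against 117 in TCRβ Tcf7WT cells, a log2 ratio of 0.45 (0.33 to 0.56), and at 180 against 127 CPM in Tcf7KO cells, a ratio of 0.51 (0.40 to 0.61). The S sum was at 394 against 453 CPM in Tcf7WT (-0.20, from -0.27 to -0.13) and at 384 against 438 CPM in Tcf7KO (-0.19, from -0.26 to -0.12). Not every S member followed the sum: in cells with fewer than 10 UMIs of the other members, Tyms was at 22.1 CPM in TCRγδ and 14.8 in TCRβ Tcf7WT cells, and at 18.6 and 12.2 CPM in Tcf7KO cells. The G2/M sum without Hmgb2 was higher in TCRγδ cells there, at 109 against 92.8 CPM in Tcf7WT (0.23, from 0.10 to 0.37) and 101 against 88.4 CPM in Tcf7KO (0.19, from 0.05 to 0.33). Inside the class it was lower in TCRγδ cells, at 1962 against 2644 CPM in Tcf7WT and 1848 against 2047 CPM in Tcf7KO. The class is cut on unthinned UMIs of the S and G2/M members compared here, and depth differs between the sorts. The values inside and outside it describe where the RNA lay and are no check of a difference between the sorts.

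A further 83 cell cycle genes in 6 lists set the members in context. Over all genes, 3.1% were at least 1.5-fold higher and 5.7% lower in TCRβ Tcf7KO, and 3.81% were higher and 8.23% lower in TCRγδ Tcf7KO. Of 25 other mitosis genes, 1 was at least 1.5-fold higher in TCRβ Tcf7KO, the chromosome motor gene Kif4 at 0.61 (-0.06 to 1.29), and 1 was lower, the cytokinesis gene Anln at -0.63 (-1.58 to 0.28); both were named after their values were seen. In TCRγδ Tcf7KO, 6 of 23 with enough UMIs were higher, among them Spc25, a kinetochore protein, at 0.94 (0.07 to 1.86) and Ncapd2, a condensin subunit, at 0.64 (0.19 to 1.10), and 0 were lower. Of 20 other replication genes, 0 were 1.5-fold apart in TCRβ cells and 2 were higher in TCRγδ Tcf7KO: Cdc45, a helicase partner, at 1.48 (0.54 to 2.50) and Uhrf1, which keeps DNA methylation through replication, at 0.59 (0.07 to 1.12). The medians of these lists in TCRγδ cells, 0.11 for both, lay above the -0.06 of all genes.

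In each of the other 4 lists, 0 to 3 genes were 1.5-fold apart between the genotypes of a sort. Of 10 G1 cyclins and kinases, 1 was higher in TCRβ Tcf7KO (Ccne2) and 1 was lower in TCRγδ Tcf7KO (Ccnd1, at -1.45). Of the E2F and pocket protein genes, 0 of 10 were apart in TCRβ and 1 of 8 was higher in TCRγδ Tcf7KO (E2f2, from 32 UMIs in all). Of 12 inhibitors and quiescence genes, 1 was lower in TCRβ Tcf7KO (Cdkn2a) and 3 were lower in TCRγδ Tcf7KO (Cdkn2a, Cdkn2b and Klf2), where 8.23% of all genes were. Of the chromatin and tubulin genes of dividing cells, 1 of 6 was higher in TCRβ Tcf7KO (Tuba1b, from 25 UMIs in all) and 0 of 5 were apart in TCRγδ cells.

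Between the sorts, 2 of 10 G1 cyclins and kinases were at least 1.5-fold higher and 1 was lower in TCRγδ Tcf7WT. Of 12 inhibitors and quiescence genes, 3 were higher and 1 was lower there, against 9.06% and 10.2% of all genes. Among Tcf7KO libraries the counts were 2 and 2 of 10, and 2 and 3 of 11, against 7.98% and 11.9%. Some genes of these lists are given here, named after their values were seen. Ccnd2 (cyclin D2) was at 637 and 675 CPM in TCRβ and at 1090 and 1138 CPM in TCRγδ cells. Its partner Cdk6 was at 10.7 and 8.87 CPM against 22.3 and 19.4 CPM, and the p18 inhibitor gene Cdkn2c was at 21.5 and 22.8 CPM against 35.6 and 38.7 CPM. Klf2, a factor that keeps T cells quiescent, was at 674 and 461 CPM in TCRβ and 139 and 87.7 CPM in TCRγδ cells. Each of these 4 kept its order between the sorts in both genotypes. Cdkn2a, the gene of the p16 and Arf inhibitors, was at 1.44 and 0.219 CPM in the TCRβ pair and at 12.5 and 1.34 CPM in the TCRγδ pair. Its log2 ratio between genotypes was -2.72 (-4.68 to -1.21) from 29 and 4 UMIs in TCRβ, and -3.22 (-4.41 to -2.22) from 76 and 9 UMIs in TCRγδ cells. In TCRβ Tcf7KO, Ccne2 (cyclin E2), which opens S phase, was at 8.27 CPM against 4.91 in Tcf7WT, a ratio of 0.75 (0.38 to 1.13).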

How the data were processed

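The authors deposited 1 matrix of UMI counts for each of the 4 libraries, with cells in columns and genes by symbol. Seurat 3.0.0 and the builds GRCm38 and mm10 are named, with no role, in the submitters' processing notes; the aligner, the rule by which genes are listed and the handling of reads shared with pseudogene copies are not given in the sources used here. Members were matched by symbol to GENCODE M21 for coordinates.

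Cells with 10 or more UMIs of the 4 epithelial genes were removed. UMIs were summed over kept cells and divided by their total (CPM). Ratios have exact 95% intervals conditional on both counts, CPM exact Poisson intervals and shares exact Clopper-Pearson intervals, all for counting error only; cells were not used as replicates. Ratios were counted where both libraries together had at least 20 UMIs, and 1.5-fold was the size counted. Cycling classes used cells thinned without replacement to 1500 UMIs. Values in all 4 libraries are printed for members with at least 100 UMIs in all. Doublets were sought with Scrublet in scanpy 1.11.5, which marked 1, 1, 3 and 6 cells and so did not work here; no cell was removed by it.

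Scaling by edgeR 4.0.16 (TMM) or by DESeq2 1.42.0 was tried as an alternative, as were other filters, thinning depths and class rules, and the removal of cells rich in member UMIs. Python 3.11.15, numpy 2.4.6, scipy 1.17.1 and R 4.3.3 were used, and the interval code was tested on simulated data. The members, lists and rules were chosen with earlier results of these data known. The naive T cell and B cell marker lists were each used without 1 gene, which is not reported here.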

Additional observations from a re-analysis of the deposited data

Results flagged for a closer look

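The cells left out for 10 or more epithelial UMIs are outside every comparison and still held UMIs of the cell cycle members. There were 83 such UMIs in 11 cells of TCRβ Tcf7WT, 579 in 3 cells of TCRβ Tcf7KO, 65 in 18 cells of TCRγδ Tcf7WT and 1094 in 20 cells of TCRγδ Tcf7KO. They made up 0.427%, 2.98%, 1.19% and 13.5% of all member UMIs in cells that held 0.642%, 0.595%, 1.65% and 6.19% of all UMIs. In both Tcf7KO libraries the left-out cells thus held more of the member UMIs than of all UMIs, and in both Tcf7WT libraries less. Single cells carried much of this: the top one had 33, 341, 18 and 354 member UMIs, of which 7, 64, 2 and 47 were Mki67. These 4 cells had 0, 0, 0 and 1 UMIs of the CD3 genes and 199, 595, 83 and 498 of the epithelial genes.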

How the results depend on the processing

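Ratios of sums are log2 values, KO/WT stands for Tcf7KO over Tcf7WT in the named sort and γδ/β for TCRγδ over TCRβ in the named genotype, and runs of 4 shares are TCRβ before TCRγδ and Tcf7WT before Tcf7KO. Against the alternatives, 191 summary values stayed within their counting error or within 1.5 times a count, 135 moved and 6 turned direction. Of the values of single genes, 302 stayed, 23 moved and 10 turned. The cause was not tested except where the alternative itself uses fewer cells. Where cells or UMIs were removed, the minimum of 20 UMIs was applied to the counts left, so fewer members could be counted. Shares over all genes were not computed under the alternatives. Classes of 8 or more thinned UMIs and of 10 or more UMIs, the removal of the 10 top cells and of the cells with 10 or more UMIs, and the cut on the top 5% of doublet scores were chosen after seeing the data. Removals by member UMIs pick cells on the values compared, and 10 cells are a larger part of the smaller TCRγδ libraries (26.2% and 18.4% of member UMIs in Tcf7KO and Tcf7WT, against 10.3% and 9.17% in TCRβ), so the values they leave, some from few UMIs, are no check of a result. The filter on B cell and myeloid markers left 3378, 2053, 530 and 47 cells and Fcer1g and Tyrobp, which are on that list, stood at 1832 and 813 CPM in TCRβ Tcf7WT cells outside the class. No paired analysis was possible because each group is 1 library, and no replicate could be left out for the same reason. TMM moved the ratio of all genes by 0.06 to 0.08 and DESeq2 size factors by 0.07 to 0.09. With 6093349 kept UMIs in the library with the fewest, members under 100 UMIs in all have intervals too wide to order the libraries. With DESeq2 size factors, the members 1.5-fold lower numbered 2 (γδ/β KO), and the S sum was 0.15 (β KO/WT), 0.25 (γδ KO/WT), -0.14 (γδ/β WT) and -0.032 (γδ/β KO). There, the G2/M sum was 0.20 (β KO/WT), 0.16 (γδ/β WT) and 0.31 (γδ/β KO). With Hmgb2 kept, the S share was 64.4%, 63.6%, 59.4% and 58%. With TMM scaling, the members 1.5-fold lower numbered 2 (γδ/β KO), and the S sum was 0.14 (β KO/WT), -0.14 (γδ/β WT) and -0.041 (γδ/β KO). There, the G2/M sum was 0.19 (β KO/WT), 0.16 (γδ/β WT) and 0.30 (γδ/β KO). With a UMI of Mki67, Top2a or Birc5 as the rule, the cycling share was 2.95%, 2.75%, 4.83% and 3.74%. With all 35 members in the rule, the cycling share was 11.1%, 11%, 11.2% and 11.4%. With at least 10 UMIs and no thinning, the cycling share was 1.96%, 3.03%, 1.82% and 3.82%. With at least 2 UMIs, the cycling share was 21.6%, 21.2%, 19.6% and 20.2%. With at least 5 UMIs, the cycling share was 1.61%, 2.07%, 1.89% and 2.04%. With at least 8 UMIs, the cycling share was 0.846%, 1.05%, 0.978% and 1.09%. In cells with 3 or more UMIs of the members, the S share was 69.6%, 69.9%, 69.7% and 68.2%. With each cell weighing the same, the members 1.5-fold higher numbered 1 (β KO/WT), 6 (γδ KO/WT), 3 (γδ/β WT) and 2 (γδ/β KO), and the members 1.5-fold lower numbered 1 (γδ KO/WT). There, the S sum was 0.031 (β KO/WT) and 0.10 (γδ KO/WT), and the G2/M sum was 0.12 (γδ KO/WT) and 0.27 (γδ/β WT). With cells left out from 3 epithelial UMIs, the G2/M sum was 0.17 (γδ KO/WT), and the cycling share was 5.42% (γδ WT). With no cells left out, the members 1.5-fold higher numbered 1 (β KO/WT), 19 (γδ KO/WT) and 9 (γδ/β KO), and the members 1.5-fold lower numbered 1 (γδ/β KO). There, the G2/M sum was 0.20 (β KO/WT), 0.54 (γδ KO/WT) and 0.42 (γδ/β KO), and the S share was 72.3% (β KO) and 63.7% (γδ KO). There, Cenpf was 0.22 (γδ/β KO) and Cdc20 was 0.084 (γδ/β KO). With no minimum of UMIs, the members 1.5-fold lower numbered 1 (γδ KO/WT). Without thinning, the cycling share was 19.7%, 24.1%, 23.3% and 37%. In thinned cells, the members 1.5-fold higher numbered 2 (β KO/WT), 1 (γδ KO/WT), 3 (γδ/β WT) and 1 (γδ/β KO), and the members 1.5-fold lower numbered 1 (β KO/WT), 1 (γδ KO/WT) and 5 (γδ/β WT). There, the S sum was 0.0027 (β KO/WT) and 0.0903 (γδ KO/WT), and the G2/M sum was 0.13 (γδ KO/WT) and 0.26 (γδ/β WT). There, Ube2c was 0.071 (γδ/β WT) and Cdk1 was -0.44 (γδ/β KO). When thinned to 1000 UMIs, the cycling share was 3.63%, 3.95%, 3.43% and 4.69%. When thinned to 2500 UMIs, the cycling share was 20.5%, 18.7%, 14.7% and 16.1%. Without cells with 10 or more UMIs of the members, the members 1.5-fold higher numbered 1 (β KO/WT), 1 (γδ KO/WT) and 7 (γδ/β WT), and the members 1.5-fold lower numbered 4 (β KO/WT) and 8 (γδ KO/WT). There, the S sum was -0.048 (β KO/WT), -0.0396 (γδ KO/WT) and -0.19 (γδ/β KO), and the G2/M sum was 0.033 (β KO/WT), 0.064 (γδ KO/WT), 0.36 (γδ/β WT) and 0.39 (γδ/β KO). There, Cenpf was 0.56 (γδ/β WT) and Ube2c was 1.14 (γδ/β WT). Without cells with 3 or more UMIs of the members, the members 1.5-fold higher numbered 1 (β KO/WT), 0 (γδ KO/WT), 5 (γδ/β WT) and 1 (γδ/β KO), and the members 1.5-fold lower numbered 3 (β KO/WT), 3 (γδ KO/WT) and 3 (γδ/β WT). There, the S sum was -0.089 (β KO/WT), -0.20 (γδ KO/WT) and -0.32 (γδ/β KO), and the G2/M sum was 0.055 (β KO/WT), 0.029 (γδ KO/WT), 0.37 (γδ/β WT) and 0.35 (γδ/β KO). Without cells with B cell or myeloid markers, the members 1.5-fold higher numbered 3 (γδ KO/WT), and the members 1.5-fold lower numbered 4 (β KO/WT), 18 (γδ/β WT) and 10 (γδ/β KO). There, the S sum was 0.16 (β KO/WT), 0.42 (γδ KO/WT), -0.45 (γδ/β WT) and -0.19 (γδ/β KO), and the G2/M sum was -0.014 (β KO/WT), 0.35 (γδ KO/WT), -0.038 (γδ/β WT) and 0.32 (γδ/β KO). There, Cenpf was 0.43 (γδ/β KO) and Cdc20 was 0.43 (γδ/β KO). Without the 10 cells of each library with the most UMIs of the members, the members 1.5-fold higher numbered 1 (β KO/WT), 5 (γδ KO/WT) and 0 (γδ/β KO), and the members 1.5-fold lower numbered 1 (β KO/WT), 5 (γδ KO/WT), 17 (γδ/β WT) and 15 (γδ/β KO). There, the S sum was 0.11 (γδ KO/WT), -0.36 (γδ/β WT) and -0.32 (γδ/β KO), and the G2/M sum was 0.093 (γδ KO/WT) and 0.043 (γδ/β KO). There, Tpx2 was -0.69 (γδ KO/WT) and Cdk1 was -0.43 (γδ/β KO).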

Other observations

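Cells with 10 or more UMIs of the members carried the cytotoxic genes of IELs at levels that differed from other cells by gene and by library. Gzma, which encodes granzyme A, was at 1588 CPM in these cells and 1670 CPM in all others in TCRβ Tcf7WT, and at 3364 and 4586 CPM in TCRβ Tcf7KO. In TCRγδ Tcf7WT it was at 3935 CPM in these 34 cells against 13055 CPM in all others, and in TCRγδ Tcf7KO at 15009 against 20596 CPM. Gzmb, granzyme B, was higher in these cells in TCRβ Tcf7WT, at 1018 against 877 CPM, and lower in TCRβ Tcf7KO, at 2255 against 2578 CPM. In TCRγδ cells it was at 3457 against 5321 CPM in Tcf7WT and at 6232 against 8495 CPM in Tcf7KO. Cd160 was lower in the class in TCRβ cells, at 769 against 1038 CPM in Tcf7WT and 707 against 781 CPM in Tcf7KO. In TCRγδ cells Cd160 was higher in the class, at 724 against 600 CPM in Tcf7WT and 417 against 238 CPM in Tcf7KO. Itgae was lower in the class in every library. The naive T cell markers Ccr7, Lef1, Dapl1 and Igfbp4 summed to 36.0 CPM in these cells and 94.3 CPM in others in TCRβ Tcf7WT, and to 90.8 and 84.4 CPM in TCRβ Tcf7KO. Each pair of values compares cells of 1 library, and no difference was tested.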
